A study of Mus musculus with 60 samples.

Results

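Expression of 7 genes that mark inhibitory neurons was followed in the hippocampus of R6/1 mice, a transgenic model of Huntington's disease, and of WT mice. The genes were chosen by name and taken as their rows in the RNA-seq table: Gad1, Gad2, Slc32a1, Lhx6, Erbb4, Reln and Nos1, 7 of the 24508 gene symbols measured. All 7 averaged at least 0.5 RPKM over the 18 libraries (reads per kilobase of transcript scaled for depth, a level corrected for gene length), the filter that left 14446 genes for testing. The RNA came from frozen hippocampal tissue of mice aged 30 weeks on a mixed CBA x C57BL/6 background, with 9 libraries from WT and 9 from R6/1, which the labels describe as separate biological replicates. R6/1 mice carry a fragment of the human huntingtin gene with an expanded CAG repeat, so the transgene is present in every cell type of the tissue and the control group lacks it. The study also mapped where the nuclear lamina protein lamin B1 binds the genome, in the hippocampus of both genotypes, and the positions of the 7 genes were compared with the bound regions.

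Inhibitory neurons release GABA, which they make from glutamate with the glutamate decarboxylases encoded by Gad1 and Gad2 and load into synaptic vesicles with the transporter encoded by Slc32a1. Lhx6 is a transcription factor of interneurons born in the medial ganglionic eminence, among them the parvalbumin and somatostatin cells, and Erbb4 encodes the neuregulin receptor that in the adult hippocampus is found mainly on inhibitory neurons. Reln encodes reelin, a secreted glycoprotein that guides layering during development and in the adult hippocampus is made by interneurons and by the remaining Cajal-Retzius cells. Nos1 encodes the neuronal nitric oxide synthase, which is abundant in neurogliaform and ivy cells and is also found at lower levels in principal neurons. The tissue is a mixture of cell types, so fewer cells of a type and less RNA per cell cannot be told apart in these values.

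Between 12299434 and 16736544 reads fell on genes in each library, and the members were counted from 200 reads (Lhx6 in WT replicate 6) to 6383 reads (Gad1 in WT replicate 4). Of the 14446 genes tested with limma, 3394 (23.5%) were lower and 3586 (24.8%) were higher in R6/1 at an adjusted p under 0.05, so that 48.3% of genes passed the test in one direction or the other. The median log2 fold change (R6/1 minus WT) over all tested genes was 0.00, with quartiles of -0.17 and 0.15. Of the genes that passed, 51.4% were higher in R6/1 in the deposited scaling, and 66.9% after scaling to the total reads of each library, where the median log2 fold change was 0.07. WT replicate 1 had the largest median absolute deviation from its genotype's median per gene (0.124 on the log2 scale, against 0.061 to 0.098 in the other libraries), and members that rest on it are given with and without it.

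Of the 7 members, 4 fell in R6/1 and 0 rose, with 3 not past the threshold, beside 23.5% lower and 24.8% higher among all tested genes. The genes that fell were Gad1, Gad2, Reln and Nos1, and the genes that did not pass were Slc32a1, Lhx6 and Erbb4. The median log2 fold change of the 7 was -0.21, beside 0.00 over all tested genes. In the authors' deposited table the same 4 members passed an adjusted p of 0.05, all lower, where 20.4% of the genes with an adjusted p were lower and 20% higher. Only Gad2 had every R6/1 library below every WT library, which held for 6.38% of tested genes.

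**Figure D1:**
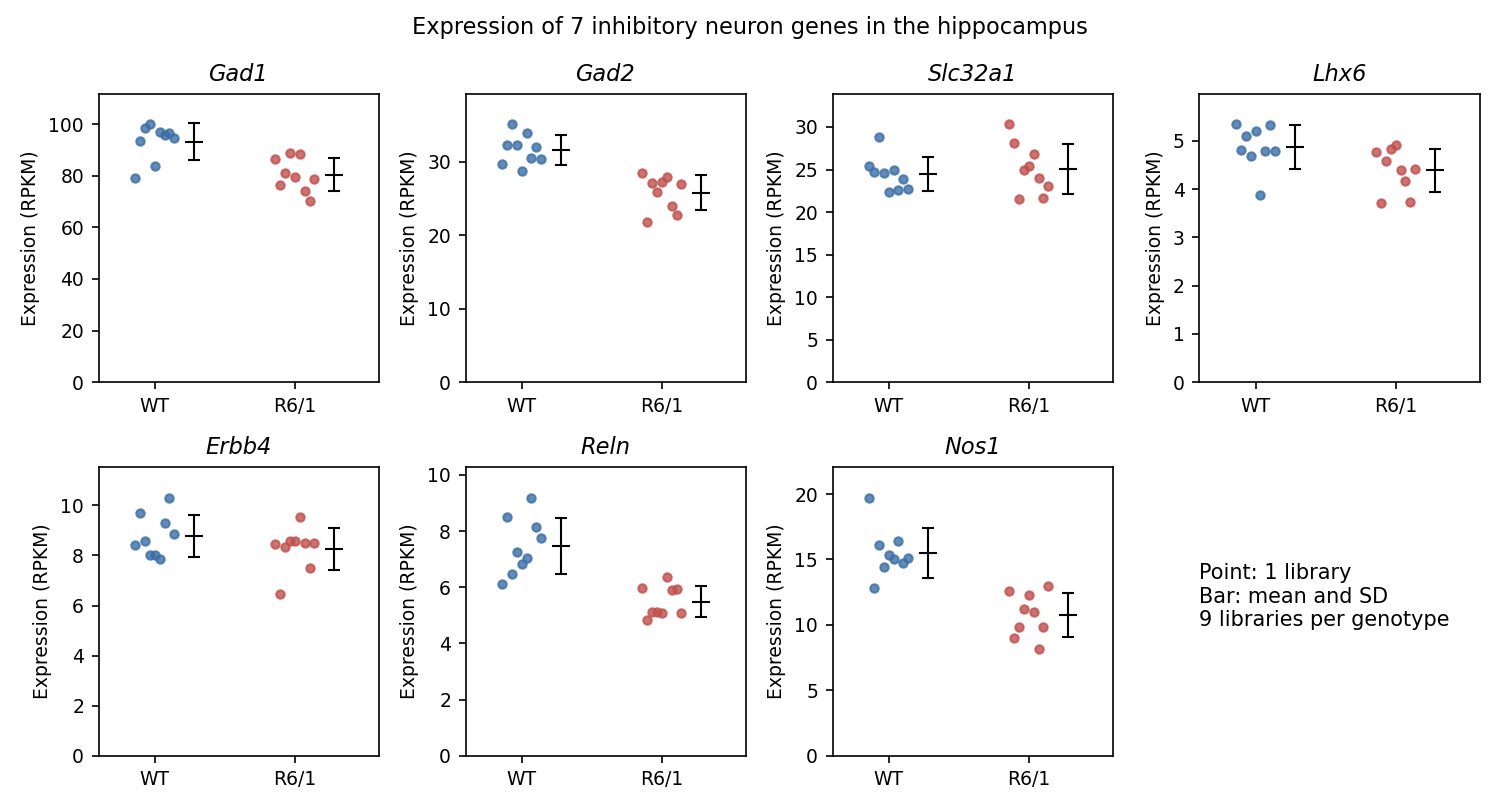
Expression (RPKM, linear axes starting at 0) of the 7 members in each of the 9 WT (blue) and 9 R6/1 (red) libraries, with the mean and SD beside the points. The R6/1 libraries of Gad2 (21.8 to 28.5 RPKM) lie below all WT libraries (28.8 to 35.1 RPKM), while those of Slc32a1 (21.5 to 30.3 RPKM) span the WT range.

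The levels of the 7 genes differed widely within a library. In WT the order of the mean levels in RPKM was Gad1, Gad2, Slc32a1, Nos1, Erbb4, Reln and Lhx6, from the 95.7th percentile of tested genes for Gad1 down to the 35.5th percentile for Lhx6. Neighbours in that order did not overlap between their WT ranges except Gad2 with Slc32a1 and Erbb4 with Reln, and even these kept their order within each of the 9 WT libraries. In R6/1 the order of the means was the same, but the ranges overlapped for Gad2 with Slc32a1, Nos1 with Erbb4 and Reln with Lhx6. Gad2 was above Slc32a1 in 7 of the 9 R6/1 libraries and Nos1 was above Erbb4 in 8 of them.

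Upstream sequences of 4 members are printed to set the genes of the GABA-making and GABA-loading steps, of which Gad1 and Gad2 fell and Slc32a1 did not pass the test, beside Reln, the member whose upstream region differs most in composition. They come from RefSeq's GRCm38.p6 windows, the bases before a RefSeq start of each gene, which need not be its first annotated base. They were placed by exact match on NCBIM37 (mm9), the build named in the submitters' processing notes. Bases that an annotated exon covers were left out, so that Gad1 (chr2:70399936-70400098, plus strand) is shown with 163 bases, Gad2 (chr2:22477597-22477724, plus strand) with 128, Slc32a1 (chr2:158436244-158436493, plus strand) with 250 and Reln (chr5:21850524-21850773, minus strand) with 250, each 5′ to 3′ on the gene's own strand. Capitals mark matches on either strand to GGGCGG (the core of a GC box), to TATAAA (the TATA box), to TAATTA (a core that homeodomains bind), to TGACGTCA (the cAMP response element) or to CCAAT (the CCAAT box); none of these overlapped another.
Gad1: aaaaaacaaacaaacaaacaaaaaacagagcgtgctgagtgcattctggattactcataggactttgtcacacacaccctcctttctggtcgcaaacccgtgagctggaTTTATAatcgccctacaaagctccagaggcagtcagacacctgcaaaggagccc
Gad2: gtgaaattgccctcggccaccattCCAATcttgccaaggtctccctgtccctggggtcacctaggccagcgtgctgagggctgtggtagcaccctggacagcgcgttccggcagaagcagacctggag
Slc32a1: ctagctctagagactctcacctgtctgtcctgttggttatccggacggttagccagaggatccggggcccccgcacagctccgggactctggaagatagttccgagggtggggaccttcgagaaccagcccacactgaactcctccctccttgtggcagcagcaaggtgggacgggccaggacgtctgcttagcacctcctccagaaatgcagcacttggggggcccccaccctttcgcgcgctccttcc
Reln: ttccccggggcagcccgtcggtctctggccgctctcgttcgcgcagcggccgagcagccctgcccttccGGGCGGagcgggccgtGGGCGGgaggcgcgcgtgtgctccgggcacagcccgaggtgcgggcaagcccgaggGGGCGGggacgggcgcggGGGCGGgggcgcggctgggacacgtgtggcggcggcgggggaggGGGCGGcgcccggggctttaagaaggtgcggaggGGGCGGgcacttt

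Over the full 250 bases before the start, Reln held 6 matches to GGGCGG, and 33% of 32536 RefSeq windows of that length held at least 1. It also had 37 CG dinucleotides and a GC content of 80.0%, at the 99th percentile of windows, where the median window had 6 CG dinucleotides and 52.4% GC. Gad1 held 1 match to TATAAA (12.3% of windows), read as TTTATA on the printed strand, and 1 to GGGCGG in the bases not printed. Gad2 held 1 match to CCAAT (33.8% of windows). Lhx6 has 3 such windows, with 1 match to GGGCGG and 1 to CCAAT in the first, 1 to GGGCGG in the second and 1 to CCAAT in the third. No match to the 5 motifs was found in the windows of Slc32a1, Erbb4 or Nos1, and all 7 members had a window. The Gad1 window lies 9057 bases downstream of the gene's first annotated base and the Nos1 window 85807 bases downstream, so both describe an internal start.

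Gad1, the gene of the larger glutamate decarboxylase, lies at chr2:70391129-70440071 on the plus strand of NCBIM37 (ENSMUSG00000070880.4). Its level was 79.1, 95.9 and 99.9 RPKM in the lowest, median and highest WT library and 70.4, 79.6 and 88.8 RPKM in R6/1. All 9 R6/1 libraries were below the WT mean and 4 were below the lowest WT library, so the groups overlapped. The mean level went from 93.2 ± 7.05 RPKM (SD, n = 9) in WT to 80.4 ± 6.42 RPKM (SD, n = 9) in R6/1. The log2 fold change was -0.21 (SE 0.052, limma adjusted p = 0.00203), and the mean RPKM differed by -13.7%. WT replicate 1 had the lowest Gad1 of its group, and without it the log2 fold change was -0.24 (limma adjusted p = 0.00031). Scaled to each library's own total of reads, it was -0.14 (limma adjusted p = 0.0283). The annotated transcript 1500002O10Rik overlaps the 5′ end of Gad1 on the opposite strand, and whether the authors counted reads by strand is not given in the sources used here.

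Gad2 encodes the second decarboxylase, which is concentrated at nerve terminals, and lies at chr2:22477725-22549394 on the plus strand (ENSMUSG00000026787.3). The lowest, median and highest WT libraries held 28.8, 32.0 and 35.1 RPKM, and the R6/1 libraries 21.8, 27.0 and 28.5 RPKM. Every R6/1 library was below every WT library. The means were 31.7 ± 2.04 RPKM (SD, n = 9) and 25.8 ± 2.39 RPKM (SD, n = 9). Gad2 thus changed by -0.29 on the log2 scale (SE 0.053, limma adjusted p = 0.000115), and its mean RPKM by -18.5%.

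Slc32a1, the vesicular GABA transporter, is a short gene of 4.99 kb at chr2:158436494-158441484 on the plus strand (ENSMUSG00000037771.10). Its WT libraries held 22.3, 24.6 and 28.8 RPKM at the lowest, median and highest, and its R6/1 libraries 21.5, 25.0 and 30.3 RPKM. The groups overlapped over most of their ranges, with 4 of 9 R6/1 libraries below the WT mean. The mean was 24.4 ± 2.01 RPKM (SD, n = 9) in WT and 25.1 ± 2.93 RPKM (SD, n = 9) in R6/1, and the difference of 0.03 on the log2 scale (limma adjusted p = 0.689, SE 0.062) had a 95% interval from -0.10 to 0.16. That interval leaves out a fall as large as the mean fall of Gad1 or Gad2. Gm14205 lies within Slc32a1 on the opposite strand.

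Lhx6, the transcription factor, lies at chr2:35937470-35960928 on the minus strand (ENSMUSG00000026890.11) and was the least abundant member. It was at 3.87, 4.80 and 5.34 RPKM in the lowest, median and highest WT library and at 3.71, 4.42 and 4.91 RPKM in R6/1. The groups overlapped, although 8 of 9 R6/1 libraries were below the WT mean. The means were 4.88 ± 0.453 RPKM (SD, n = 9) and 4.39 ± 0.445 RPKM (SD, n = 9). The log2 fold change was -0.14 (95% interval -0.27 to -0.01), and with an unadjusted p of 0.0413 and a limma adjusted p of 0.0778 it did not pass the threshold. Without WT replicate 6, the lowest WT library, it was -0.17 with a limma adjusted p of 0.0164, so the call rests on that library, and after scaling to the total reads of each library it was -0.07 (limma adjusted p = 0.364).

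Erbb4, the neuregulin receptor, is by far the longest of the 7 genes, 1076 kb at chr1:68078760-69154633 on the minus strand (ENSMUSG00000062209.8). Its lowest, median and highest WT libraries were at 7.87, 8.57 and 10.3 RPKM, and its R6/1 libraries at 6.47, 8.48 and 9.54 RPKM. The medians of the genotypes were close and the ranges overlapped. The means were 8.78 ± 0.832 RPKM (SD, n = 9) and 8.26 ± 0.85 RPKM (SD, n = 9), with a log2 fold change of -0.08 (95% interval -0.22 to 0.05, limma adjusted p = 0.288). It was -0.04 without R6/1 replicate 2 and -0.01 after scaling to the total reads of each library, and it passed in neither.

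Reln, which encodes the secreted protein reelin, lies at chr5:21390272-21850523 on the minus strand (ENSMUSG00000042453.7). Its WT libraries held 6.13, 7.26 and 9.18 RPKM at the lowest, median and highest, and its R6/1 libraries 4.83, 5.13 and 6.35 RPKM. All R6/1 libraries but 1 were below the lowest WT library, which was WT replicate 1. The mean fell from 7.48 ± 0.996 RPKM (SD, n = 9) to 5.49 ± 0.546 RPKM (SD, n = 9). The log2 fold change was -0.41 (SE 0.071, limma adjusted p = 8.46e-05), and the mean RPKM differed by -26.7%. Without WT replicate 1 the log2 fold change was -0.44 (limma adjusted p = 2.94e-05). Reln shares its locus with 6 annotated transcripts and pseudogenes, 4 of them on the opposite strand.

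Nos1, the neuronal nitric oxide synthase, lies at chr5:118231041-118408849 on the plus strand (ENSMUSG00000029361.10) and showed the largest fall of the 7. Its WT libraries held 12.8, 15.1 and 19.7 RPKM at the lowest, median and highest, and its R6/1 libraries 8.15, 11 and 13 RPKM. Of the R6/1 libraries, 8 were below the lowest WT library. The means were 15.5 ± 1.9 RPKM (SD, n = 9) and 10.8 ± 1.67 RPKM (SD, n = 9). Nos1 thus changed by -0.51 on the log2 scale (SE 0.085, limma adjusted p = 4.94e-05), and its mean RPKM by -30.5%. The highest WT value was in replicate 1, and without that library the log2 fold change was -0.47 (limma adjusted p = 7.48e-05).

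**Figure D2:**
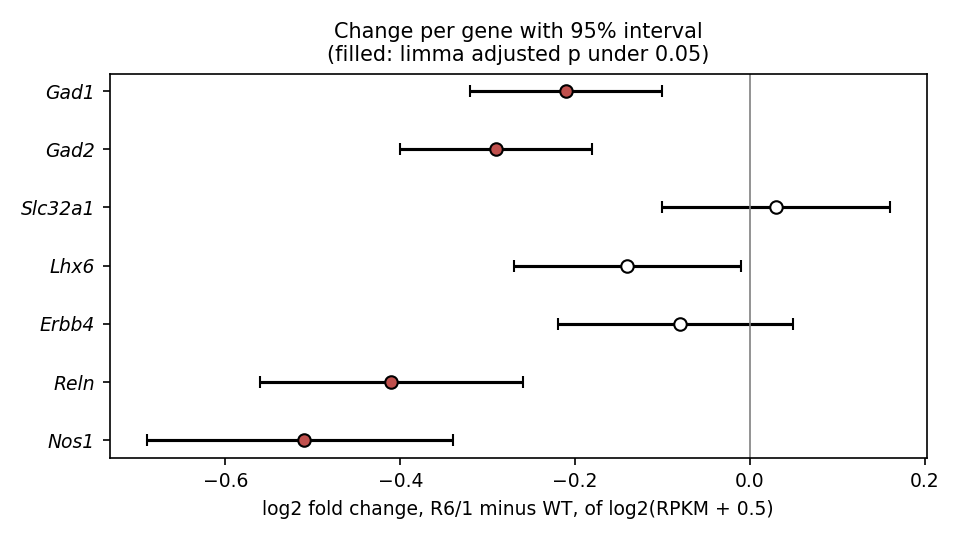
Log2 fold change (R6/1 minus WT) of each member on the log2(RPKM + 0.5) scale, with its 95% interval. Filled points passed a limma adjusted p of 0.05: the intervals of Gad1, Gad2, Reln and Nos1 lie below 0, that of Slc32a1 runs from -0.10 to 0.16, and that of Lhx6 ends at -0.01 without passing the adjusted threshold.

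Whether the members changed by different amounts was asked with ratios of RPKM + 0.5 taken within each library, which depend little on how libraries are scaled against each other because only the added 0.5 does not cancel. Of the 21 pairs among the 7 genes, the log2 ratio differed between genotypes in 13 at an adjusted p under 0.05 (exact permutation of the genotype labels, two-sided, adjusted over the 21 pairs). The count was 12 with 0.1 or 1 added in place of 0.5, and ranged from 9 to 13 when each library was left out in turn.

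The decarboxylases and the vesicular transporter parted. The ratio of Gad2 to Slc32a1 in RPKM was 1.17, 1.32 and 1.37 in the lowest, median and highest WT library and 0.776, 1.04 and 1.26 in R6/1. It was above 1 in all 9 WT libraries and in 7 of 9 R6/1 libraries, with ranges that overlapped. Its mean went from 1.3 ± 0.0664 (SD, n = 9) to 1.04 ± 0.136 (SD, n = 9), a log2 difference of -0.33 (exact permutation test, adjusted p = 0.00144). Gad1 to Slc32a1 went from 3.84 ± 0.369 to 3.23 ± 0.33 (SD, n = 9 each), a log2 difference of -0.25 (exact permutation test, adjusted p = 0.00896), with all 9 R6/1 libraries below the WT mean. Between the decarboxylases themselves, the ratio of Gad1 to Gad2 in WT was 2.94 ± 0.16 (SD, n = 9) and in R6/1 it was 3.13 ± 0.209 (SD, n = 9), and the log2 difference of 0.08 did not pass (exact permutation test, adjusted p = 0.0853).

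Nos1 and Reln fell relative to the 3 members that did not pass their own test. Slc32a1 rose relative to Nos1 by 0.55 on the log2 scale (exact permutation test, adjusted p = 0.00144) and relative to Reln by 0.44 (adjusted p = 0.00418, same exact test), in all 9 R6/1 libraries against the WT mean. Erbb4 rose relative to Nos1 by 0.43 (exact permutation test, adjusted p = 0.00346) and relative to Reln by 0.33 (adjusted p = 0.00216, same exact test). Lhx6 rose relative to Nos1 by 0.37 (exact permutation test, adjusted p = 0.00144). Reln to Nos1 differed by 0.10, a difference that did not pass (exact permutation test, adjusted p = 0.463).

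The falls of Gad1 and Nos1 also differed, with a log2 difference in their ratio of 0.30 (exact permutation test, adjusted p = 0.0149), and Gad2 fell relative to Erbb4 by a log2 difference of -0.21 (adjusted p = 0.00469, same exact test). The remaining 4 pairs that passed, Gad1 to Reln, Gad2 to Nos1, Gad2 to Lhx6 and Lhx6 to Reln, had adjusted p between 0.035 and 0.0365 by the same exact test. Slc32a1, Lhx6 and Erbb4 showed no ratio difference among themselves that passed with all libraries. The difference for Slc32a1 to Lhx6 was 0.17 (exact permutation test, adjusted p = 0.0853; 0.21 and p = 0.035 without WT replicate 6) and that for Lhx6 to Erbb4 was -0.05 (adjusted p = 0.382, same exact test).

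**Figure D3:**
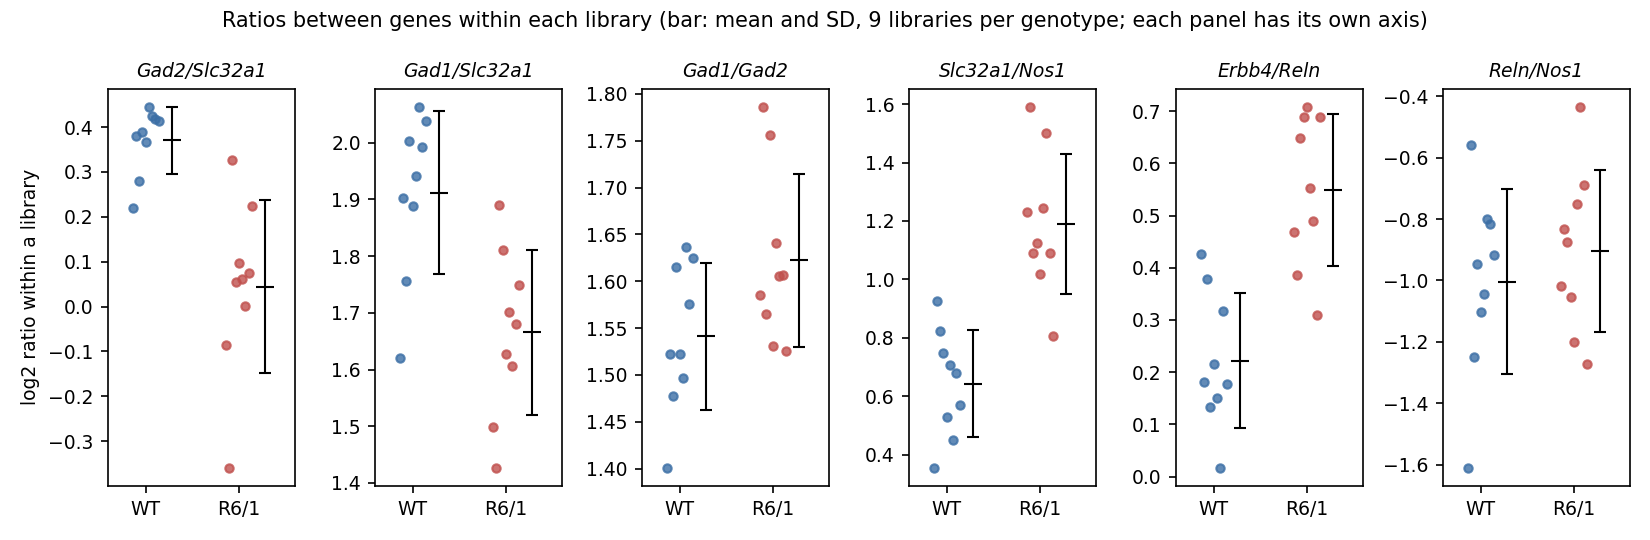
Log2 ratio between 2 members within each library for 6 of the 21 pairs, WT in blue and R6/1 in red, with the mean and SD of 9 libraries beside the points and a separate axis for each pair. Gad2 to Slc32a1 and Gad1 to Slc32a1 are lower in R6/1 (differences of -0.33 and -0.25), with ranges that overlap. The differences for Gad1 to Gad2 (0.08) and Reln to Nos1 (0.10) did not pass the adjusted threshold.

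Within a genotype, Gad1 and Gad2 tended to be high in the same libraries, with a Pearson r of 0.73 in WT and 0.74 in R6/1 (exact permutation p of 0.025 and 0.0252, n = 9 each) and a Spearman rho of 0.83 and 0.67 (exact permutation p of 0.00827 and 0.0589). Without the 2 libraries farthest from the Gad1 median, r was 0.50 in WT and 0.77 in R6/1. After adjustment over the 14 correlations computed, neither passed (exact permutation test, adjusted p = 0.117 for both Pearson values, and 0.116 and 0.206 for rho), and 0 of the 14 passed by either measure. Gad2 with Slc32a1 gave r of 0.75 in WT and 0.18 in R6/1 (exact permutation, adjusted p of 0.117 and 0.762), with rho of 0.62 and 0.32 (exact permutation, adjusted p of 0.24 and 0.574) and, without 2 libraries, r of 0.34 and 0.46. Slc32a1 with Gad1 gave r of 0.19 in WT and 0.50 in R6/1 (exact permutation, adjusted p of 0.762 and 0.346), with rho of 0.25 and 0.35 (exact permutation, adjusted p of 0.607 and 0.558) and, without 2 libraries, r of 0.49 and 0.39.

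As a description, tested genes averaging 1 RPKM or more were ranked by how closely their deviations from the genotype mean followed those of each member over the 18 libraries; all genes of a library share its depth and its mix of cell types. Among 13105 such genes those nearest to Slc32a1 included Aplp1 (r = 0.93) and Tmem179 (r = 0.88). The nearest to Gad1 were Mgst3 (0.84), Colgalt2 (0.81) and Tfe3 (0.81), and the nearest to Gad2 were Diras2 (0.84), Entpd7 (0.81) and Fem1c (0.79). Gad1 and Gad2 had an r of 0.72 with each other, which placed Gad2 at rank 13 for Gad1 and Gad1 at rank 11 for Gad2. The nearest to Nos1 were Mmd2 (0.87), Krt2 (0.84) and Pcdh19 (0.84), those to Erbb4 were Adra1a (0.84), Caln1 (0.83) and Tmem132d (0.80), those to Lhx6 were Fosl2 (0.80), Idh1 (0.78) and Scml4 (0.77), and those to Reln were Pcnt (0.78), Clasp1 (0.77) and Mecr (0.77).

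The pathways around the members were read from 7 lists of 89 further genes, of which 85 were tested. In all, 43 of the 85 fell and 11 rose, with a median log2 fold change of -0.19, beside 23.5% lower, 24.8% higher and a median of 0.00 over all tested genes.

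Around the GABA enzymes, 4 of 9 genes of GABA synthesis, transport and breakdown fell and 1 rose, with a median log2 fold change of -0.18. The fall was largest for Slc6a11, the GABA transporter GAT3 found mainly on astrocytes, which went from 59.7 to 38.2 RPKM with no overlap between the genotypes (log2 fold change -0.63, SE 0.085, limma adjusted p = 4.94e-06). The breakdown enzymes Abat, GABA transaminase, and Aldh5a1, succinic semialdehyde dehydrogenase, fell by similar amounts, -0.23 and -0.22 (limma adjusted p = 0.000425 and 0.000133). Slc38a1, a glutamine transporter, rose from 26.1 to 35.1 RPKM with no overlap (0.42 on the log2 scale, limma adjusted p = 1.42e-07). No overlap in either direction was seen for 11.9% of all tested genes. Glul, the glutamine synthetase of astrocytes, was at 710 and 647 RPKM in WT and R6/1 and did not pass the test (limma adjusted p = 0.0647).

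Among the interneuron transcription factors beside Lhx6, 5 of 13 tested genes fell and 3 rose, with a median log2 fold change of -0.14. Dlx2, a homeobox gene of the embryonic ganglionic eminences, rose from a mean of 1.79 RPKM (range 1.29 to 2.35) to 4.98 RPKM (range 4.19 to 6.4), with every R6/1 library above every WT library (log2 fold change 1.27, SE 0.1, limma adjusted p = 3.87e-09). Dlx1, its neighbour in the same gene cluster and named here after its values were seen, was at 3.88 and 3.80 RPKM (limma adjusted p = 0.874). Sp9, a zinc-finger factor of the same lineage, rose from 1.68 to 2.66 RPKM (0.52 on the log2 scale, limma adjusted p = 0.000315). Npas1 and Etv1 fell by -0.38 and -0.22 on the log2 scale (limma adjusted p = 0.00105 and 0.000799).

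Of the genes listed for interneuron subtypes, 24 were tested, 19 fell and 0 rose, with a median log2 fold change of -0.50. The part of other cell types in these falls was not tested. Npy, neuropeptide Y, went from 45.1 to 20.9 RPKM (-1.10 on the log2 scale, limma adjusted p = 2.68e-09), and Sst, somatostatin, from 195 to 86.7 RPKM (-1.17, limma adjusted p = 3.9e-09). Cck, cholecystokinin, which excitatory neurons also express, went from 234 to 119 RPKM (-0.98, limma adjusted p = 2.88e-09), and Elfn1, a synaptic adhesion protein of somatostatin cells, from 7.20 to 3.76 RPKM (-0.85, limma adjusted p = 3.25e-09). These 4 had the lowest adjusted p of the list, and the genotypes did not overlap for any of them. Among all tested genes, 6.38% had all R6/1 libraries below all WT libraries. For Vip and Pvalb, which also fell, the ranges overlapped. Id2 fell from 58.1 to 43.6 RPKM (-0.41, limma adjusted p = 0.000348).

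Around Reln, 3 of 12 genes of the reelin pathway fell and 4 rose, with a median log2 fold change of 0.07. These counts are near the shares among all tested genes, 23.5% lower and 24.8% higher. The receptors Lrp8 (11.5 and 11.4 RPKM in WT and R6/1) and Vldlr (12.9 and 13.7 RPKM) did not pass the test (limma adjusted p = 0.826 and 0.106), and Dab1, the adaptor that they recruit, fell by -0.18 on the log2 scale (limma adjusted p = 0.00182). Of the Src-family kinases, which phosphorylate Dab1, Src fell by -0.20 (limma adjusted p = 0.000172). Fyn differed by 0.05 on the log2 scale and did not pass (limma adjusted p = 0.139). The downstream genes Rapgef1 and Crkl rose by 0.26 and 0.25, and Pafah1b1, which encodes LIS1, rose by 0.17 (limma adjusted p = 1.98e-05, 0.000191 and 0.0013).

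Around Erbb4, 2 of 10 genes of neuregulin and ErbB signalling fell and 2 rose, with a median log2 fold change of 0.00. Both counts are near the shares among all tested genes, 23.5% lower and 24.8% higher. Of the ligands, Nrg3 fell from 14.4 to 12.6 RPKM (-0.18 on the log2 scale, limma adjusted p = 0.00142) and Nrg1 rose from 1.43 to 2.06 RPKM (0.39, limma adjusted p = 0.00962). The related receptor Egfr fell from 2.66 to 1.97 RPKM (-0.36, limma adjusted p = 0.000623), and the protease Adam10 rose by 0.14 (limma adjusted p = 0.00782).

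Around Nos1, 7 of 11 tested genes of nitric oxide signalling fell and 0 rose, with a median log2 fold change of -0.34. Nos1ap, the adaptor that binds the synthase, fell from 25.2 to 15.4 RPKM with no overlap (log2 fold change -0.69, limma adjusted p = 5.78e-09). Dlg4, which encodes the scaffold PSD-95 that holds the synthase at excitatory synapses, fell from 309 to 216 RPKM, also with no overlap (-0.51, limma adjusted p = 1.68e-09). A lack of overlap in either direction held for 11.9% of all tested genes. Dynll1, a light chain that binds the synthase, fell from 107 to 82.3 RPKM (-0.37, limma adjusted p = 1.77e-05), and Ddah1, which degrades an endogenous inhibitor of the synthase, fell by -0.48 (limma adjusted p = 3.15e-06). The kinase gene Prkg1 fell by -0.42 (limma adjusted p = 1.27e-05), while Gucy1b3, a subunit of the nitric oxide receptor, was at 53.1 and 55.6 RPKM and did not pass (limma adjusted p = 0.214).

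At the receiving side of GABA synapses, 3 of 6 scaffold genes fell and 1 rose, with a median log2 fold change of -0.11. Iqsec3 and Shisa7 fell by -0.32 and -0.28 on the log2 scale (limma adjusted p = 2.5e-05 and 9.34e-05). Nlgn2, the neuroligin of inhibitory synapses, rose from 62.4 to 71.9 RPKM (0.20, limma adjusted p = 0.000173).

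**Figure D4:**
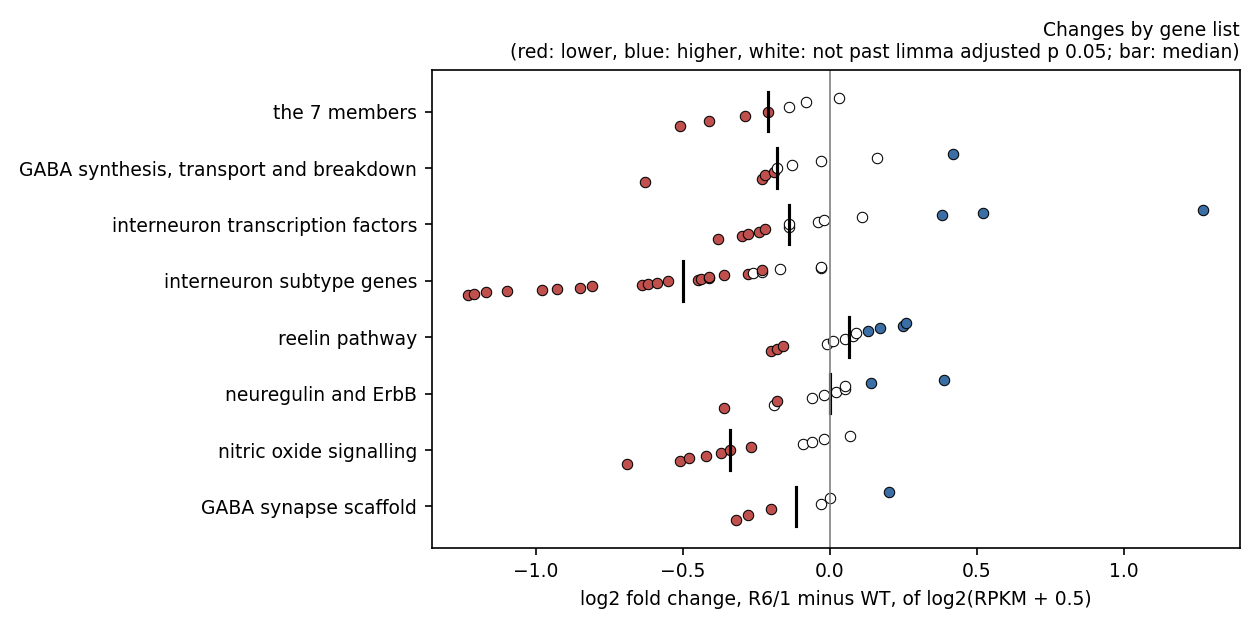
Log2 fold change (R6/1 minus WT) of each tested gene of the 7 members and of the 7 pathway lists, with 1 point per gene, red for lower and blue for higher at a limma adjusted p under 0.05, white for neither, and a bar at the list median. The subtype genes lie furthest to the left (median -0.50) and the reelin pathway and neuregulin lists lie around 0 (medians 0.07 and 0.00); Dlx2 is the rightmost point (1.27).

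Markers of other cell types were counted in the same way, beside 23.5% lower and 24.8% higher among all tested genes. Of 7 excitatory neuron markers, 4 fell and 1 rose, and their summed level ran from 1644 to 1975 RPKM in WT and from 933 to 1131 RPKM in R6/1. All 5 dentate granule cell markers fell (summed level 68.8 to 103 RPKM in WT and 44.1 to 52.8 RPKM in R6/1), as did all 5 astrocyte markers (428 to 598 and 317 to 463 RPKM). Of 7 pan-neuronal genes, 5 fell and 1 rose (2296 to 2741 and 2019 to 2168 RPKM). The part of these shifts in the falls of Gad1, Gad2, Reln and Nos1 was not tested.

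For Reln, markers of Cajal-Retzius cells, another source of reelin, were sparse. Trp73 was at 1.04 RPKM in both genotypes (limma adjusted p = 1), Lhx1, Lhx5 and Ebf3 had means of 0.107 to 0.536 RPKM and were below the filter, and Cxcr4, which other cells also express, fell from 2.12 to 0.958 RPKM (limma adjusted p = 2.12e-05). The summed level of the 5 was 2.89 to 4.93 RPKM in WT and 2.01 to 3.3 RPKM in R6/1. For the GABA genes, striatal projection neurons are a neighbouring GABA-making population: of its 6 markers 3 fell and 0 rose, and their summed level was 21.9 to 32.2 RPKM in WT and 15.2 to 19.6 RPKM in R6/1. Among all tested genes 23.5% were lower, and the part of either list in the members' changes was not tested.

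Of the remaining lists, 4 of 5 oligodendrocyte markers fell (summed level 819 to 1056 RPKM in WT and 463 to 842 RPKM in R6/1), and 1 of 3 precursor markers fell (19.7 to 24.6 and 17.5 to 22.8 RPKM). Of the microglial markers 2 of 5 fell (91.3 to 131 and 73 to 116 RPKM), and of the endothelial markers 1 of 4 (30.7 to 57.4 and 29.7 to 54.4 RPKM). These counts stand beside 23.5% lower among all tested genes. Choroid plexus genes, led by Ttr, varied widely between libraries of both genotypes (summed level 25.7 to 1072 RPKM in WT and 38.3 to 1740 RPKM in R6/1), and 0 of 6 passed the test. With the mean log2 level of that list as a covariate, added after the data were seen, the 4 members that fell kept their calls, with limma adjusted p of 0.00258 for Gad1, 0.00015 for Gad2, 2.18e-05 for Reln and 5.55e-05 for Nos1.

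The study's chromatin data gave 1 list of lamin B1 domains per genotype, with 145 domains in WT and 166 in R6/1, so there is no replicate spread and no test. Erbb4 was the member found inside such a domain: its whole body lay in a domain of 6.55 Mb in WT (chr1:65379001-71928000) and of 5.14 Mb in R6/1 (chr1:67007001-72150000). The gene start lay in a domain for 13.1% of 12951 tested genes with a position in WT and for 8.03% in R6/1, which is the background for 1 of 7 members in each. Lhx6 started 0.151 Mb from the nearest domain, the same one in both genotypes. Among the members that fell, the nearest WT domain was 2.46 Mb away for Reln, 2.61 Mb for Gad1, 13 Mb for Gad2 and 29.3 Mb for Nos1, and in R6/1 the distances were 3.13, 3.09, 12.7 and 8.01 Mb. Slc32a1 was 8.07 Mb away in WT and 8.22 Mb in R6/1.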

How the data were processed

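RNA-seq of mouse hippocampus was analysed for 9 WT and 9 R6/1 libraries, grouped by the genotype in the labels. The libraries were made from messenger RNA with a stranded kit, per the labels' protocols. The authors deposited RPKM per gene symbol, and the values are scaled by size factors rather than by each library's total of reads, as the recovered reads show. TopHat, Bowtie, DESeq2 and the build mm9 are named per the submitters' processing notes; the counter and the gene annotation are not given in the sources used here. The authors' deposited table of the comparison holds, per the file headers, a mean normalized count (signal), the log2 fold change and its SE, a score, and p-values before and after adjustment. The deposited lamin B1 domain lists give positions and a score per domain, and how replicates were combined is not given in the sources used here.

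log2(RPKM + 0.5) was fitted with limma 3.58.1 (R 4.3.3, trend) over genes averaging 0.5 RPKM or more, and p-values were adjusted by Benjamini-Hochberg over all 14446 genes. Fold changes are on that scale, which understates changes of low genes. Ratios between members and correlations used exact permutation tests in Python 3.11.15. Whole reads were recovered from the RPKM steps (at least 99.87% of values within 0.05 of a whole number in each library) for depth and for a limma-voom alternative. In simulated data for R6/1 against WT with 14446 genes, 50 genes were changed at each size and all others were left unchanged. There the fit recovered 56% of genes changed by 0.3 on the log2 scale, 94% at 0.6 and 100% at 1 and 2. Of its calls, 4.37% were false. Because 48.3% of genes passed in the real data, these rates describe the simulated setting only.

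The members, the gene lists and the tests were chosen with earlier results of these data known. Named genes were the members, the 3 nearest patterns of each member and genes of the pathway lists. In each list these were up to 4 genes with the lowest adjusted p and those averaging 50 RPKM or more. Dlx1, Lrp8, Vldlr, Dab1, Fyn and the cell type markers were named after their values were seen. Some genes that this rule would name are not reported here. Sequences are RefSeq's. The number of per-sample columns left out was 0. Neither ATAC-seq nor ChIP reads were analysed here.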

Additional observations from a re-analysis of the deposited data

Results flagged for a closer look

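In 2 of the 14 groups of 9 libraries (7 members in each genotype), 1 library stood further from the others than Dixon's 95% critical value for 9 samples, where chance would give about 0.7. Slc32a1 was 28.8 RPKM (959 reads) in WT replicate 3, and the next highest WT library held 25.4 RPKM. With that library left out, Slc32a1 differed by 0.06 on the log2 scale (limma adjusted p = 0.405). Lhx6 was 3.87 RPKM (200 reads) in WT replicate 6, and the next lowest WT library held 4.69 RPKM. With that library left out, Lhx6 differed by -0.17 on the log2 scale (limma adjusted p = 0.0164).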

How the results depend on the processing

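Each member was refitted in 30 alternatives: other pseudocounts (0.1 and 1), filters and scalings, limma without trend, voom on recovered reads, the authors' deposited table, a replicate block, a choroid plexus covariate (added after seeing the data) and each library left out. Gad1, Gad2, Erbb4, Reln and Nos1 kept their direction and their side of the threshold in all 30, with adjusted p of at most 0.0283 for Gad1, 0.000837 for Gad2, 0.000631 for Reln and 0.000142 for Nos1. With each library left out, the log2 fold change of Slc32a1 ranged from -0.00 (without R6/1 replicate 1, adjusted p = 0.991) to 0.06 and that of Lhx6 from -0.17 (without WT replicate 6, adjusted p = 0.0164) to -0.11, so that 4 or 5 members passed. The log2 ratio of Reln to Slc17a7 ranged from -0.01 (without WT replicate 1, exact permutation, adjusted p = 0.922) to 0.11. The ratios Gad1 to Reln, Gad2 to Lhx6, Gad2 to Nos1 and Lhx6 to Reln lost their call in 12, 13, 7 and 8 alternatives, while Gad1 to Erbb4 (-0.16 without R6/1 replicate 2), Slc32a1 to Lhx6 (0.21 without WT replicate 6) and Cnr1 to the decarboxylases gained one in 1, 1 and 3; the cause was not tested. Scaling each library to its own total of reads moved the median log2 fold change of all genes by 0.07 and the share of calls that were higher from 51.4% to 66.9% (58.3% with quantile normalization). In that scaling Gad1 was at -0.14 (limma adjusted p = 0.0283) and Slc32a1 at 0.11 (limma adjusted p = 0.13), Lhx6 at -0.07 (limma adjusted p = 0.364) and Erbb4 at -0.01 (limma adjusted p = 0.868).

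Whether the replicate numbers pair the libraries could not be settled from 9 pairs. Same-numbered WT and R6/1 libraries had correlations of their deviations from -0.05 to 0.24, above 0.1 in 3 of 9 pairs. In each genotype, 2 of 9 libraries correlated best with their own number. With the replicate number as a block, 3666 genes were higher and 3467 lower, 4 members were lower, and the limma adjusted p was 0.00467 for Gad1, 0.000563 for Gad2, 0.0855 for Lhx6, 0.000433 for Reln and 6.94e-05 for Nos1. Of the 21 ratios, 12 passed in the paired exact test, and Gad2 to Lhx6 did not (-0.16, adjusted p = 0.0505). At 200 to 294 reads, Lhx6 had the lowest counts of the members.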

Other observations

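Set against Slc17a7, the vesicular glutamate transporter of hippocampal excitatory neurons, most of the members were higher in R6/1. These ratios and those below, 15 in all, were chosen after seeing the data and adjusted together (two-sided exact permutation test within libraries). Slc17a7 itself fell from 605 to 440 RPKM (-0.46 on the log2 scale, limma adjusted p = 1.17e-06). Slc32a1 rose relative to it by 0.49 on the log2 scale, with every R6/1 library above every WT library (exact permutation test, adjusted p = 0.000154). The log2 ratio rose by 0.25 for Gad1, 0.16 for Gad2, 0.32 for Lhx6 and 0.37 for Erbb4 (exact permutation test, adjusted p of 0.000529, 0.0141, 0.000309 and 0.00137). Reln and Nos1 differed by 0.05 and -0.05 relative to Slc17a7 and did not pass (exact permutation test, adjusted p of 0.673 and 0.57).

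Only part of the 24 tested genes of interneuron subtypes, picked after seeing the data, was set against the mean log2 level of Gad1 and Gad2. The 5 genes of that list that did not pass their own test were among those left out. The ratios below thus do not describe the whole list, and Cck is also expressed by excitatory neurons. Lamp5 of neurogliaform cells, Sst, Npy, Cck and Vip fell relative to the decarboxylases, by log2 differences of -0.97, -0.92, -0.84, -0.73 and -0.68, with all 9 R6/1 libraries below the WT mean for each (exact permutation test, adjusted p from 0.000154 to 0.00137). Pvalb, the parvalbumin gene, differed by -0.11, the calretinin gene Calb2 by -0.30 and the cannabinoid receptor gene Cnr1 by -0.15, and these did not pass (exact permutation test, adjusted p of 0.279, 0.207 and 0.0595), although Cnr1 passed in 3 alternatives, without WT replicate 2, 6 or 9 (-0.18, -0.17 and -0.17). The differences between subtype genes were not themselves tested.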
